A study of Triticum aestivum with 96 samples.

Results

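The probesets described here are those that stood higher in wheat crowns of spring habit than in crowns of winter habit, in both of the genetic backgrounds studied, while the plants were held in the cold. A probeset is the group of array probes that reads 1 transcript. Members were chosen on the mean log2 level at 14, 21, 35 and 42 days in the cold, taken as the spring line minus the winter line of the same background (D). Of 61179 probesets other than array controls, 19122 could enter after names ending in _x_at or _s_at, 27 probesets already singled out by the study, and probesets without a group mean of 7 or more had been set aside. A D of 0.5 or more in both backgrounds was found for 315, and the 150 with the largest smaller D are the members. Because D comes from those 4 days, the habit difference on them is given as a description, and tests were kept to 0, 2, 56 and 70 days. The arrays of the tested days did not enter D, but the limit of 7 was read on all days, and 11 of the 150 members reached it only on a tested day. With the limit read on the 4 days of D and 150 members chosen anew, an alternative added after the data were seen, the share of members called higher in spring habit was 80% and 69.3% in Norstar at 56 and 70 days (80% and 70% as reported) and 36% and 21.3% in Manitou (37.3% and 22%).

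The 4 lines compared are near isogenic lines of hexaploid wheat. Winter Norstar, a cold-hardy cultivar, carries the recessive winter allele vrn-A1, and spring Manitou, a tender cultivar, carries the dominant spring allele Vrn-A1. Spring Norstar and winter Manitou are derived lines in which this locus was swapped by repeated backcrossing, so spring Norstar has Vrn-A1 in the Norstar background and winter Manitou has vrn-A1 in the Manitou background. Each derived line is a single line, and the Vrn-A1 allele and whatever else lies on the swapped segment cannot be told apart. Seedlings of all lines were grown in hydroponics to the 3-leaf stage and moved to 6 °C under long days, and crowns were taken before the cold (0 days), at 2 days, on the 4 days named above, and at 56 and 70 days. For every line and day (32 groups) there were 3 biological samples, each a pool of crowns on its own Affymetrix Wheat GeneChip, or 96 arrays in all. The sample labels and the methods give 21 days for the fourth harvest, while the treatment text of the labels names another day in its place. In pooled crowns, fewer cells of a type and less RNA per cell cannot be told apart.

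Vrn-A1 encodes a MADS-box transcription factor that promotes the change of the shoot tip from making leaves to making an inflorescence. The winter allele is kept at a low level until long cold raises it, which is vernalization, while the spring allele is active without cold. In cereals VRN1 acts with FT, the mobile flowering signal, and with related MADS-box factors, and the crown, which holds the shoot tip at the base of the leaves, is the organ that has to survive winter. The Vrn-A1 probeset, which is no member, read 9.56, 9.33 and 9.58 in spring Norstar and 5.14, 5.50 and 5.61 in winter Norstar at 0 days, and 9.78, 9.46 and 9.72 in spring Manitou against 4.38, 5.97 and 5.30 in winter Manitou, as the labels state. By 70 days it had risen by 5.92 in winter Norstar and by 6.07 in winter Manitou since day 2, and it then stood 1.16 lower in spring Norstar and 1.24 lower in spring Manitou than in their winter counterparts.

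All 150 members were among the 31543 probesets tested. They fall into 140 transcript clusters by name, since 20 of them share a cluster with another member and may not be separate genes. Descriptions came from an annotation table that the study made from probesets it had selected on these same samples, so that the makeup of the described members is not independent evidence. Only part of that table, 1742 rows, was held. It listed 74 members, 68 of them with a description, and 82 members carry none here. Gene lists were formed by matching words in the descriptions. The members held 6 of 10 tested flowering probesets, 8 of 81 for defence, 5 of 44 for the cell wall, 6 of 102 for cytochrome P450 and other oxidoreductases, 4 of 51 for transport, 3 of 71 for proteases and senescence, 2 of 49 for transcription factors, with MADS2 counted under both that list and flowering, and 1 each for lectins, sugar metabolism (1 of 17), lipid transfer (1 of 50) and hormones (1 of 26). Ta.13168.1.S1_a_at, described as of a protease inhibitor, seed storage and lipid transfer family, was counted under both proteases and lipid transfer. The words of the protease list did not match the OsSub7 subtilisin probesets. No member came from the lists for cold-regulated proteins and dehydrins (0 of 45 tested), photosynthesis (0 of 28), histones and chromatin (0 of 53), cell cycle and cytoskeleton (0 of 36), protein kinases and phosphatases (0 of 37), ribosomal proteins (0 of 19), heat shock proteins (0 of 10) or transposons (0 of 15). The tested counts of all these lists can include probesets that the choice of members had set aside beforehand. Those were probesets already singled out by the study or without a group mean at the limit, and they could not become members. Several cold-regulated, dehydrin and LEA probesets were among those singled out by the study. Part of the 0 of 45 may therefore have been fixed in advance, and how large a part was not tested. No probeset in the annotation held matched the words for floral organ genes, so the members could not be searched for them.

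On the days that chose them, D had a median over members of 1.25 log2 units in Norstar and 0.92 in Manitou, and it was the larger in Norstar for 126 of the 150. The smaller D ran from 0.71 to 3.79, reaching 1 in 57 members and 2 in 10. At the limit, the last members taken in were Ta.371.1.S1_at and Ta.6043.1.S1_at, with smaller D of 0.706 and 0.705, and the first left out were Ta.2819.2.S1_a_at and Ta.2534.1.S1_at, at 0.702 and 0.700. Members just inside the limit therefore did not stand apart from those just outside.

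The levels over time describe the lines, and the gap between habits from 14 to 42 days follows from the choice of members. The median member fell between 0 and 2 days in every line. In the spring lines it then climbed from 14 days on, whereas in the winter lines it stayed low and climbed late, at 42 days and after in winter Manitou and mostly between 56 and 70 days in winter Norstar. Taken as the mean of the 3 array medians, it passed from 7.11 at 0 days through 6.55 at 2 days and 6.02 at 35 days to 7.50 at 70 days in winter Norstar, and from 7.52 through 6.94 and 7.93 to 8.85 in spring Norstar. In winter Manitou the same days gave 7.66, 7.12, 7.04 and 8.86, and in spring Manitou 7.96, 7.48, 8.48 and 9.22. At 70 days winter Manitou (array medians 8.83 to 8.88) thus stood level with spring Norstar (8.77 to 8.92), and winter Norstar (7.22 to 7.80) was below the other lines.

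**Figure D1:**
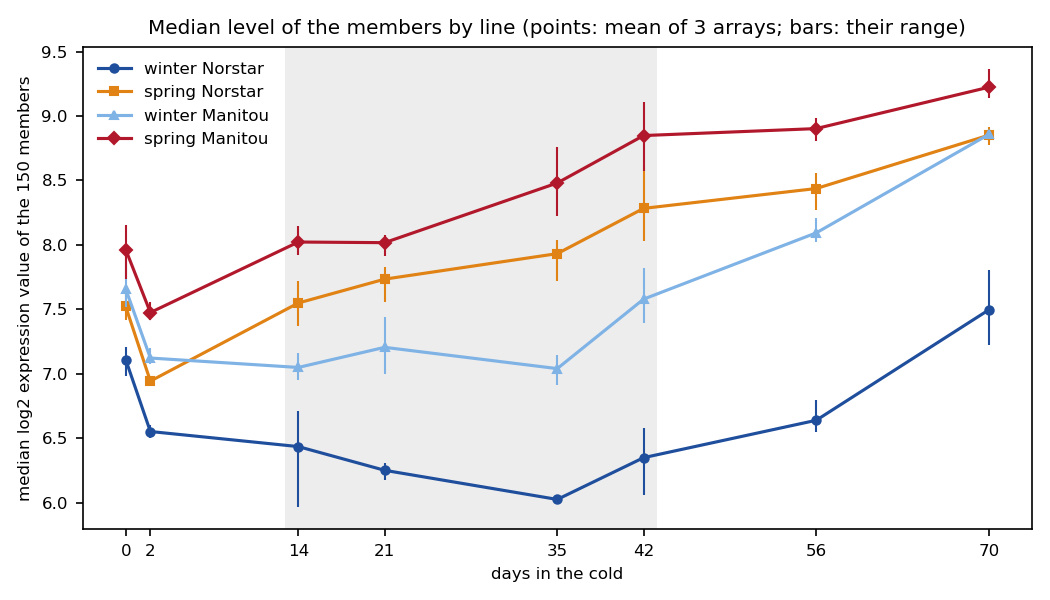
Median log2 expression value of the 150 members (y axis) against days in the cold (x axis) in the 4 lines, as the mean of 3 array medians with bars for their range and with the days that chose the members shaded. Winter Manitou reaches 8.86 and spring Norstar 8.85 at 70 days, while winter Norstar ends at 7.50.

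Before the cold and at its start the spring and winter lines were close. The median habit difference of the members was 0.24 in Norstar and 0.27 in Manitou at 0 days and 0.28 and 0.31 at 2 days, where the medians over all probesets tested lay between -0.02 and 0.01. Under the 32-group limma fit with Benjamini-Hochberg adjusted p under 0.01, 2 members were higher and 0 lower in spring Norstar at 0 days (0.0285% of all probesets tested were called higher and 0.0539% lower). In spring Manitou 0 were higher or lower on that day (0.0127% and 0.0222%). Same-numbered arrays deviated together at 0 days (r from 0.465 to 0.752), and this fit left such pairing out. At 2 days 0 were higher or lower in Norstar (0.0285% and 0.0222%), and 3 were higher and 0 lower in Manitou (0.0254% and 0.0190%). At an unadjusted p under 0.05 there were 35 and 34 higher members at 0 days and 35 and 38 at 2 days, with 0 lower in each. With array quality weights 4% of members were called in Norstar and 7.33% in Manitou at 2 days. Neither result has a share over all probesets beside it. The 3 spring arrays all lay above the 3 winter arrays in 44 members in Norstar (5.82% of all probesets tested) and 31 in Manitou (4.44%) at 0 days, and in 59 (5.29%) and 61 (4.51%) at 2 days. By these positions of the arrays, a small lead of the spring lines was spread over more members than the calls counted.

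The early calls were few. Leaving out 1 replicate in turn gave 0% of members in Norstar at 0 days in place of 1.33%. In Manitou at 2 days it gave 0% to 0.667% in place of 2%. BX9 glucosyltransferase (Ta.1688.1.S1_at), which in maize adds glucose to benzoxazinoid defence compounds, read 10.22, 9.98 and 10.03 in spring Norstar and 9.14, 9.38 and 9.23 in winter Norstar at 0 days, a difference of 0.83 (SE 0.15, limma adjusted p = 0.00131). Ta.7741.1.S1_at, which has no description, read 6.51, 6.40 and 6.62 against 5.31, 4.98 and 5.52 on that day (difference 1.24, SE 0.24, limma adjusted p = 0.00537). At 2 days in the Manitou background the higher members were MADS2 (Ta.6793.1.A1_at, 1.25) and both probesets of LOC780634, TaAffx.120063.1.S1_at (1.63) and TaAffx.92706.1.A1_at (1.15). TaAffx.120063.1.S1_at read 4.11, 4.51 and 5.15 in spring Manitou, 2.81 to 3.12 in winter Manitou, 3.35, 3.19 and 3.88 in spring Norstar and 2.68 to 3.09 in winter Norstar, so that the spring arrays were above the winter arrays in both backgrounds. The winter arrays were near the floor of the array and below the brightness limit of the test (a highest group mean of 5.15), and here, as wherever 1 of the groups reads below that limit, the size of a difference is not exact. Whether the habit difference at 0 or 2 days differed between backgrounds was tested for each member, and 0 passed in either direction (0.0127% of all probesets higher and 0.0222% lower at 0 days, 0.00634% and 0.0159% at 2 days). At an unadjusted p under 0.05 there were 2 and 2 members at 0 days and 0 and 1 at 2 days. These counts have no share over all probesets beside them.

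At 56 and 70 days, after the days that chose them, the members were still higher in spring habit, broadly in Norstar and much less so in Manitou. In Norstar the median difference was 1.48 at 56 days and 1.33 at 70 days, against 0.02 and -0.02 over all probesets tested. There, 120 members were higher and 0 lower at 56 days (4.06% and 3.00% of all probesets were called higher and lower), and 105 were higher and 2 lower at 70 days (6.65% and 9.17%). In Manitou the median was 0.80 at 56 days and 0.25 at 70 days, with 56 members higher and 0 lower at 56 days (1.99% and 2.04%), and 33 higher and 10 lower at 70 days (3.01% and 3.73%). Leaving out 1 replicate in turn lowered the share of members called in Manitou at 56 days from 37.3% to between 15.3% and 27.3%. The 3 spring arrays lay above the 3 winter arrays in 129 and 125 members in Norstar (19.0% and 17.4% of all probesets), and in 102 and 61 in Manitou (13.0% and 9.42%).

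**Figure D2:**
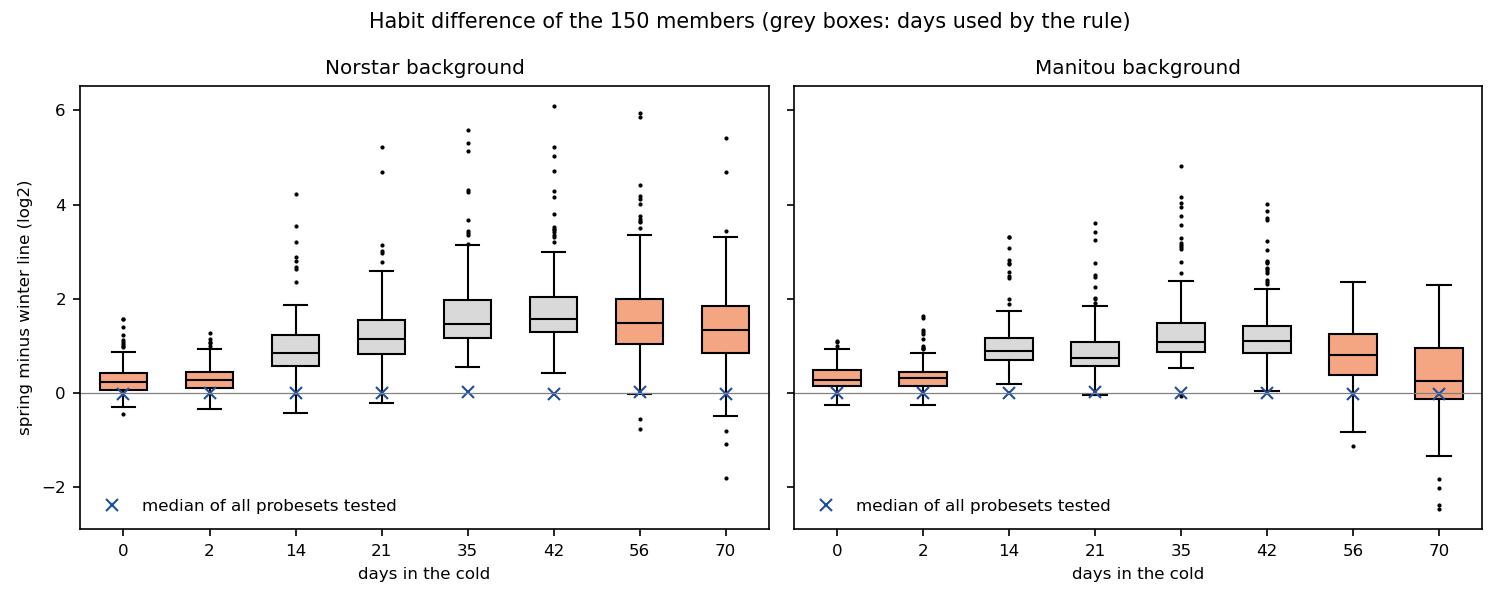
Spring minus winter line on the log2 scale (y axis) for the 150 members on each day in the cold (x axis), in the Norstar background (left) and the Manitou background (right). Boxes span the quartiles with the median as a line, whiskers reach 1.5 times the box height at most, points lie beyond them, grey boxes are days that chose the members, and crosses are medians over all probesets tested; the Norstar median stays at 1.33 at 70 days and the Manitou median comes down to 0.25.

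The difference between backgrounds was itself tested. The habit difference was larger in Norstar for 27 members at 56 days and 25 at 70 days and larger in Manitou for 0 on both days, whereas 0.476% and 0.336% of all probesets were called larger in Norstar and 0.618% and 0.269% larger in Manitou. At 70 days same-numbered replicates deviated together, with r from 0.105 to 0.207 in Norstar and from 0.298 to 0.625 in Manitou. With the replicate number within a day as a random block, 28.7% of members were called on that day in place of 16.7%. Leaving out 1 replicate in turn gave 6% to 14.7% in place of 18% at 56 days and 5.33% to 10.7% at 70 days. From 2 to 70 days the signed habit difference rose in 57 members and fell in 2 in Norstar (2.14% and 3.90% of all probesets). In Manitou it rose in 8 and fell in 9 (0.587% and 1.02%). A fall can pass through 0 and leave the lines farther apart. In Manitou Ta.28847.1.S1_a_at stood at 1.30 at 2 days and at -2.46 at 70 days. Leaving out 1 replicate in turn gave 15.3% to 29.3% of members in place of 38% for the rise in Norstar. For the fall in Manitou it gave 0.667% to 6.67% in place of 6%, and array quality weights gave 14.7%. At 70 days 33 members were called higher in both backgrounds, 72 in Norstar without a call of higher in Manitou, 0 in Manitou alone, and 3 were higher in Norstar and lower in Manitou. These contrasts share arrays, so they are not separate pieces of evidence. Joint calls in both backgrounds were counted over members only, with no share over all probesets beside them.

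**Figure D3:**
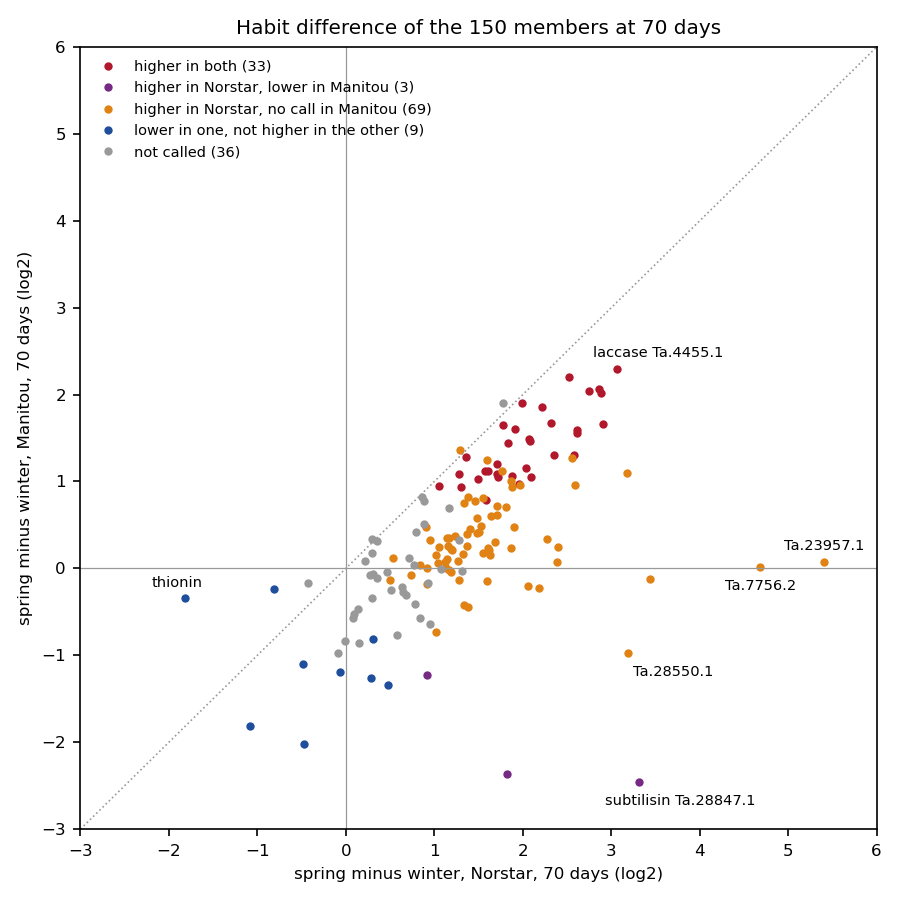
Spring minus winter line at 70 days on the log2 scale in Norstar (x axis) and Manitou (y axis), 1 point for each of the 150 members, coloured by the calls at a limma adjusted p under 0.01, with the dotted line marking equal differences. Most points lie below that line, and 33 members are higher in both backgrounds, 69 in Norstar with no call in Manitou, and 3 in Norstar with a call of lower in Manitou.

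Some lists of genes that mark other processes also differed between lines late on. Histone and chromatin probesets had a median habit difference of -0.11 in Norstar and -0.55 in Manitou at 56 days and of -0.84 and -0.96 at 70 days, where 0 of 53 were above 0 in either background. Their mean per array ran from 11.80 to 11.89 in winter Norstar and from 10.88 to 11.14 in spring Norstar at 70 days, and from 11.04 to 11.64 and from 10.28 to 10.78 in winter and spring Manitou. Cell cycle and cytoskeleton probesets had medians of -0.80 and -0.52 (7 and 9 of 36 above 0), photosynthesis probesets 0.17 and 0.04 (21 and 16 of 28), and proteases and senescence 0.06 and 0.05 (40 and 40 of 71). The probeset for SAG12, a protease of ageing leaves, was left out by the choice of members because the study had already singled it out. Its D was past the limit of 0.5 in both backgrounds. It was 3.70 higher in spring Norstar at 56 days and 2.23 higher at 70 days, with 1.84 and 0.11 in Manitou, where it was not called. The part of these shifts in the late differences of the members was not tested.

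Flowering regulators were the described group nearest to the swapped gene in function. All 6 member probesets were higher in spring Norstar than in winter Norstar at 56 days, by 2.35 to 3.75, and at 70 days, by 1.02 to 2.59. In Manitou 3 of the 6 were called higher at 56 days, over a range of 0.38 to 2.21, and 1 at 70 days, over a range of -0.73 to 1.49. Of the 4 other tested flowering probesets, Vrn-A1 and Vrt1 were left out by the choice of members, and the MADS-box factor TaAGL18 (Ta.21250.1.S1_at) and CONSTANS-like CO6 (Ta.23098.1.A1_at) had habit differences of -0.07 and -0.04 in Norstar and -0.02 and 0.72 in Manitou at 70 days, the last of which was called.

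MADS2, also named WM7 (Ta.6793.1.A1_at), is a MADS-box transcription factor, a family that sets the identity of meristems and floral organs. At 56 days it read 7.90, 7.73 and 7.62 in spring Norstar and 4.12, 3.96 and 3.91 in winter Norstar. In the Manitou background the arrays read 8.18, 8.69 and 8.37 in the spring line and 6.40, 7.22 and 5.65 in the winter line. The groups did not overlap in either background, and the difference was 3.75 in Norstar (SE 0.25, limma adjusted p = 7.14e-20) and 1.99 in Manitou (SE 0.25, limma adjusted p = 5.19e-08). At 70 days winter Norstar had come up to 6.39, 6.38 and 5.93 and winter Manitou to 7.65, 7.12 and 7.63, and the differences were 2.07 and 1.49, both called. MADS2 was the only flowering probeset among the members that was called higher in both backgrounds at both 56 and 70 days.

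MADS-box protein 8 (Ta.3583.1.A1_at), whose best rice match is OsMADS15, a VRN1 relative that promotes the shift to the inflorescence in rice, began at the same low level in all lines, with arrays from 3.59 to 4.02 at 0 days. Winter Norstar still read 4.07, 3.99 and 4.21 at 56 days, when spring Norstar read 7.47, 7.61 and 6.76. Winter Manitou had reached 5.35, 6.82 and 5.00 and spring Manitou 7.68, 8.39 and 7.72, so that both winter lines lay wholly below their spring counterparts. The differences were 3.19 in Norstar and 2.21 in Manitou at 56 days, and 2.59 and 0.96 at 70 days, of which the last was not called (limma adjusted p = 0.0399).

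The FT-like probesets read the relative of the mobile flowering signal FT. Ta.10782.1.S1_at stood at 6.21, 6.21 and 6.24 in winter Norstar at 56 days and at 9.13, 9.19 and 8.56 in spring Norstar. In Manitou it stood at 7.95, 8.61 and 7.33 in the winter line and 8.90, 9.36 and 8.52 in the spring line, where the arrays overlapped. By 70 days the 3 winter Manitou arrays (9.72, 9.36 and 9.49) were beside those of spring Manitou (9.91, 9.78 and 9.59), and winter Norstar (8.25, 8.56 and 7.21) was still below spring Norstar (10.34, 9.58 and 9.70). The habit difference was 2.74 in Norstar and 0.96 in Manitou at 56 days, and this gap of 1.77 between backgrounds passed the test (SE 0.38, limma adjusted p = 0.00244). The other probeset of this cluster, Ta.10782.2.S1_a_at, gave 2.35 and 0.81 on the same day and 1.69 and 0.30 at 70 days.

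Cen-like protein (Ta.11111.1.A1_at), matched to rice RCN4, belongs to the family of TFL1, whose members delay flowering and keep meristems indeterminate in Arabidopsis and rice. Before the cold it read 8.25, 8.28 and 7.82 in winter Norstar and 8.71, 8.83 and 8.47 in spring Norstar. Both Manitou lines were lower at 0 days, at 6.28, 6.31 and 6.08 in winter and 7.12, 6.84 and 6.52 in spring habit. The Norstar background exceeded Manitou by 1.89 in winter habit and 1.84 in spring habit at 0 days, and by 1.92 in spring habit at 70 days, all of them called. In winter Norstar it then went down to 6.50, 6.57 and 6.59 at 56 days, when spring Norstar read 10.49, 10.58 and 9.55. The Norstar excess was not kept in winter habit. Over the 6 flowering members, this one among them, winter Norstar minus winter Manitou ran from -2.43 to -0.84 at 56 days. At 70 days it ran from -1.95 to -0.02. The habit difference of Cen-like protein was larger in Norstar by 2.26 at 56 days and by 1.94 at 70 days.

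SPL13 (Ta.6374.3.S1_a_at) is described as a SQUAMOSA promoter-binding-like protein, a family that promotes the adult and flowering phases in other plants. Its habit difference at 56 days was 3.06 in Norstar and 0.38 in Manitou, and the gap of 2.68 between them was called (limma adjusted p = 8.63e-07). At 70 days the winter Manitou arrays (9.16, 8.94 and 8.30) lay mostly above those of spring Manitou (7.70, 8.08 and 8.42), a difference of -0.73 that was not called. The 2 probesets of LOC780634 (TaAffx.120063.1.S1_at and TaAffx.92706.1.A1_at), for which no role was available, were higher by 4.11 and 3.35 in Norstar and by 1.88 and 1.45 in Manitou at 56 days, all called. In Manitou at 70 days they differed by 0.96 and 0.72, neither called. SPL13 and these comparisons were singled out after their values were seen.

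**Figure D4:**
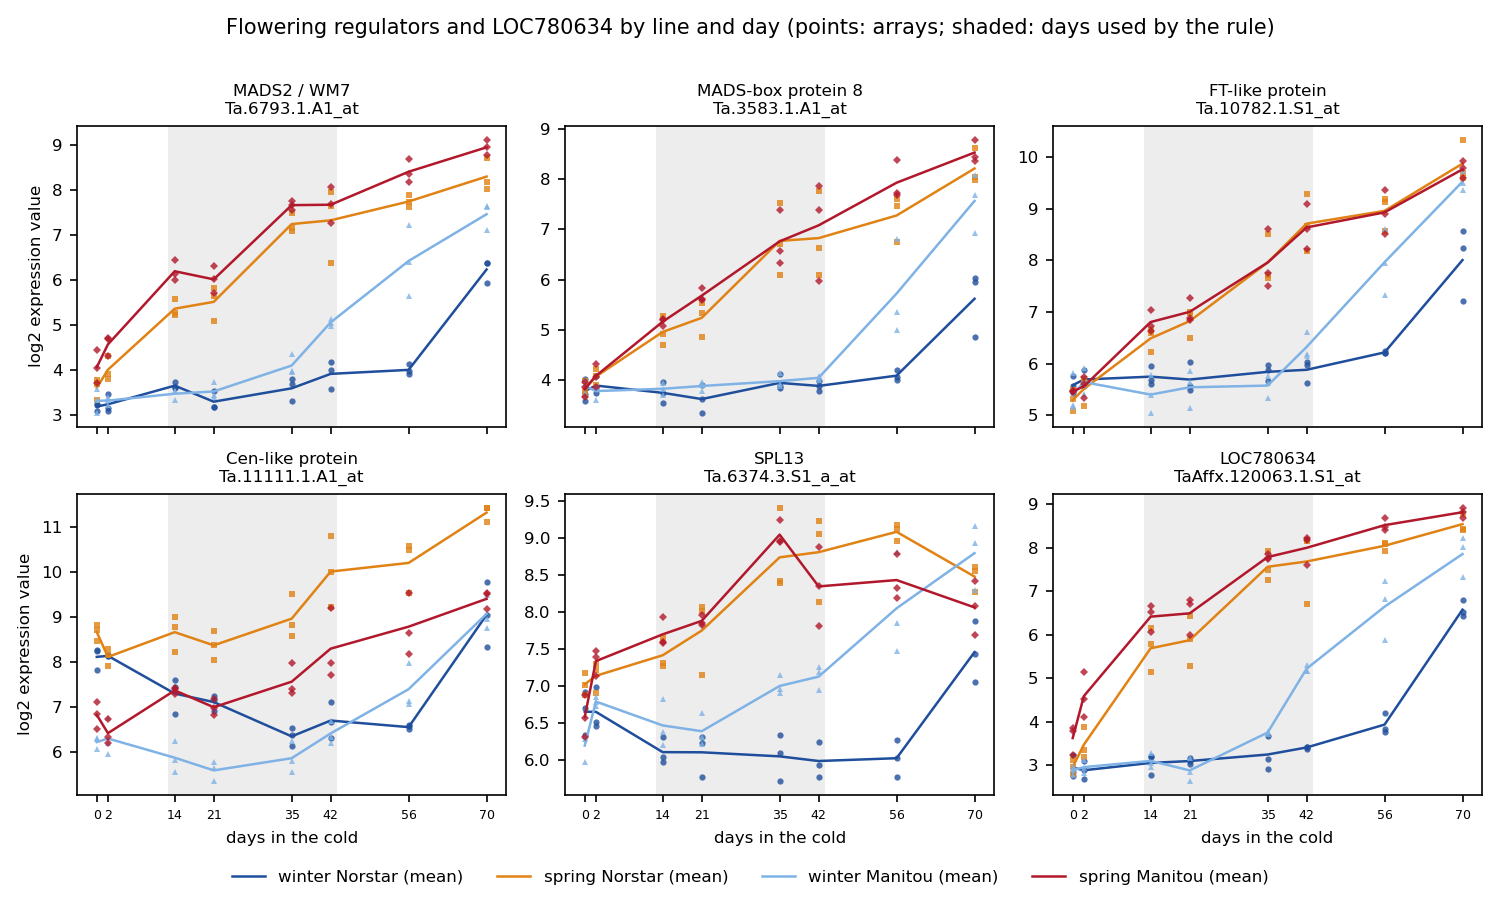
Log2 expression value (y axis) against days in the cold (x axis) of 5 flowering regulators and the LOC780634 probeset TaAffx.120063.1.S1_at, with points for single arrays, lines for means of 3 and the days that chose the members shaded. Winter Norstar, in dark blue, leaves its low level only after 56 days for MADS-box protein 8 (Ta.3583.1.A1_at; 4.09 at 56 days, 5.62 at 70 days), while winter Manitou, in light blue, is up at 56 days (5.72).

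The first member by rank was Ta.7756.2.S1_a_at, which has no description. It fell from 0 to 2 days in all lines, by 2.16 to 2.52, and then came back in the spring lines from 14 days on. At 56 days it read 10.90, 11.33 and 10.65 in spring Norstar and 5.62, 4.88 and 4.84 in winter Norstar. In Manitou the spring arrays read 11.33, 11.69 and 11.58 and the winter arrays 9.85, 10.57 and 9.34. The difference was 5.85 in Norstar (SE 0.36, limma adjusted p = 1.11e-20) and 1.61 in Manitou (SE 0.36, limma adjusted p = 0.00183). At 70 days it was 4.69 and 0.01, as winter Manitou (11.16, 11.32 and 9.79) overlapped spring Manitou (11.06, 10.53 and 10.72).

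Nucleotide pyrophosphatase (Ta.23957.1.S1_at), of a family of enzymes that split the phosphate bonds of nucleotides and nucleotide sugars, had the largest habit difference of any member at 56 days in Norstar, with 11.47, 11.88 and 11.22 in spring Norstar against 5.74, 5.79 and 5.19 in winter Norstar. That difference of 5.95 was followed by 5.40 at 70 days. In Manitou it was 2.23 at 56 days and 0.07 at 70 days, when the winter line read 11.83, 12.10 and 10.68 and the spring line 11.93, 11.51 and 11.40. The winter lines of the backgrounds then differed by 5.20 (SE 0.35), with Norstar the lower. From 2 to 70 days it rose by 4.37 in spring Norstar and by 3.27 and 2.00 in the winter and spring lines of Manitou, and it changed by -0.22 in winter Norstar, where it was not called.

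A lectin probeset was also among the first 10. Ta.7388.1.S1_at reads LOC606359. Another probeset of the same cluster, left out by the choice of members, was described as a jacalin-like lectin, so these may not be 2 genes. Lectins bind sugars on proteins and cell surfaces, and jacalin-like lectins are often linked with defence and with vernalization in cereals. Its level in winter Norstar dropped from 6.62, 6.62 and 7.86 at 0 days to 2.89, 2.97 and 3.04 at 35 days, which is near the floor of the array. At 70 days winter Norstar read 4.31, 5.04 and 6.50 and spring Norstar 8.67, 8.23 and 8.48, a difference of 3.18 (SE 0.48, limma adjusted p = 2.43e-07), and the difference of 1.10 in Manitou was not called. The Hessian fly response lectin Hfr-1 (Ta.13334.1.A1_at) had no called habit difference on the 4 days tested, with 0.52 and -0.29 in Norstar and Manitou at 56 days and -0.01 and -0.84 at 70 days.

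Defence proteins made up the largest described list. The probesets Ta.28550.1.S1_at and Ta.14568.1.S1_at are described as amylase inhibitor-like proteins with a defensin match, small secreted proteins that act against insects and microbes. Ta.28550.1.S1_at read 9.55, 10.17 and 9.63 in spring Norstar and 6.19, 6.12 and 5.99 in winter Norstar at 56 days, and 10.26, 10.38 and 10.83 against 8.41, 9.16 and 8.06 in Manitou. The groups were apart in both backgrounds, by 3.68 and 1.95. At 70 days the difference stood at 3.19 in Norstar and -0.97 in Manitou, where the winter line (10.12, 10.51 and 8.50) overlapped the spring line (9.71, 8.24 and 8.24), and the gap of 4.16 between backgrounds was called. Ta.14568.1.S1_at showed 4.02 and 3.43 in Norstar and 1.53 and -0.13 in Manitou, and it was lower in winter Norstar than in winter Manitou by 4.49 already at 0 days and by 5.97 at 70 days.

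Protease inhibitors, which block digestive enzymes of insects and pathogens, moved less. Of the 4 described ones, CI2C (Ta.24535.1.S1_at), trypsin inhibitor (Ta.3519.1.S1_at), a Bowman-Birk type (Ta.3290.1.S1_at) and subtilisin-chymotrypsin inhibitor CI-1B (Ta.3114.1.S1_at), 2 were called higher in Norstar at 56 days and 2 at 70 days, and 0 in Manitou on either day. Their differences at 70 days ran from 0.13 to 1.62 in Norstar and from -0.47 to 0.21 in Manitou. Thionin (Ta.4335.1.S1_at), an antimicrobial peptide, stood the other way by then, with 4.83, 5.96 and 5.71 in spring Norstar against 6.65, 6.71 and 8.58 in winter Norstar, and was lower in spring habit by 1.81 on the log2 scale (difference -1.81, SE 0.50, limma adjusted p = 0.00406). A pathogen-related protein (Ta.1037.1.S1_at) was among those called higher in both backgrounds on both late days, by 1.65 and 1.78 in Norstar and 1.96 and 1.64 in Manitou.

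Indole synthase (Ta.10688.1.S1_at), which releases free indole, and BX9 (Ta.1688.1.S1_at) carry names of enzymes known from benzoxazinoid synthesis in maize. A P450 (Ta.1362.1.S1_at) and a beta-glucosidase (Ta.4601.2.S1_at) are given beside them, and their descriptions name only an enzyme class and no pathway. These 4 were no list of their own and were put together after their values were seen, so they show no theme. At 70 days all 4 were called higher in Norstar, by 1.14 to 1.63, and 0 were in Manitou, over 0.11 to 1.36. Indole synthase read 8.37, 8.08 and 8.16 in spring Norstar and 6.67, 6.91 and 7.18 in winter Norstar, and 8.96, 9.35 and 9.68 against 7.85, 7.52 and 8.54 in Manitou. Its Manitou difference of 1.36 was as large as that of 1.29 in Norstar and lay just past the threshold (limma adjusted p = 0.0102 and 0.00855). The gap between backgrounds at 70 days was called for 2 of the 4. It was 1.03 for BX9 (SE 0.21, limma adjusted p = 0.00287) and 1.47 for the beta-glucosidase.

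The subtilisin-like proteases gave the clearest reversal. Ta.28847.1.S1_a_at, matched to rice OsSub7, remained at 4.28, 4.58 and 4.25 in winter Norstar at 56 days, when spring Norstar read 8.50, 9.47 and 8.38, a difference of 4.41. At 70 days spring Norstar read 6.96, 8.13 and 8.16 and winter Norstar 4.52, 4.54 and 4.27, whereas in Manitou the winter line had reached 9.59, 10.08 and 8.19 and the spring line had come down to 7.92, 6.41 and 6.15. The spring line was thus higher by 3.31 in Norstar (limma adjusted p = 4.58e-10) and lower in Manitou (difference -2.46, limma adjusted p = 2.22e-06), and the gap of 5.77 between backgrounds was the largest of the members. Ta.28847.1.S1_at, from the same cluster, gave 1.82 and -2.37. The subtilisin-like Ta.19158.1.A1_at did not reverse, with 1.51 in Norstar, which was called, and 0.42 in Manitou, which was not.

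Other members called lower in spring Manitou at 70 days were polygalacturonase (Ta.11783.1.A1_at, -1.10), which loosens pectin, XA13 (Ta.3234.1.S1_at, -1.34), a sugar transporter of the MtN3 family, the undescribed Ta.758.1.A1_at (-1.82), Ta.25678.1.A1_at (-2.03), Ta.7729.1.S1_at (-1.26), Ta.7330.1.S1_at (-1.19) and Ta.6934.1.A1_a_at (-0.81), and TaAffx.63954.2.A1_at (-1.22). Of these 8, only TaAffx.63954.2.A1_at was called higher in Norstar on that day. XA13 was still 1.49 higher in spring Norstar at 56 days. The other MtN3 cluster behaved differently, since Ta.2586.2.S1_at and Ta.2586.2.S1_a_at were higher in spring habit by 1.57 and 1.28 in Norstar and by 1.12 and 1.09 in Manitou at 70 days.

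A set of 30 members kept a called difference in both backgrounds at both 56 and 70 days, a joint count with no share over all probesets beside it. All 3 laccases were in it. Laccases are secreted copper oxidases that take part in lignin formation in cell walls. Laccase-11 (Ta.20731.1.S1_a_at) read 10.49, 10.82 and 10.35 in spring Norstar and 7.80, 8.08 and 7.19 in winter Norstar at 70 days, and 11.24, 11.96 and 11.47 in spring Manitou against 9.30, 9.69 and 9.48 in winter Manitou. The spring arrays were above the winter arrays in both backgrounds, by 2.86 (SE 0.25, limma adjusted p = 3.85e-14) and 2.07 (SE 0.25, limma adjusted p = 2.55e-09), and the 0.79 between backgrounds did not pass. Ta.4455.1.A1_at read 9.13, 9.36 and 9.12 against 5.97, 6.34 and 6.13 in Norstar and 9.09, 10.31 and 10.37 against 7.74, 7.96 and 7.19 in Manitou, and its differences were 3.06 and 2.29, the latter the largest of any member in Manitou on that day. Ta.4048.1.S1_at gave 1.83 and 1.45.

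Beside the laccases, this set held MADS2, the pathogen-related protein, both Ta.2586.2 probesets, both probesets of a plant-specific domain family of unknown role (Ta.11443.1.S1_at and Ta.11443.1.S1_a_at, 1.71 and 1.72 in Norstar and 1.09 and 1.05 in Manitou at 70 days), a cytochrome P450 of the 93A2 type (Ta.21772.1.A1_at, 2.88 and 2.02), remorin (Ta.28480.1.S1_at, 1.91 and 1.60), a protein of plasma membrane domains, and many probesets with no description. Among the latter, TaAffx.59002.1.S1_at was higher by 2.74 and 2.04 and TaAffx.89353.1.S1_at by 2.61 and 1.59. From 2 to 70 days laccase-11 (Ta.20731.1.S1_a_at) changed by 0.58 in winter Norstar and the P450 by -0.13, neither called, while in winter Manitou they rose by 1.84 and 1.63 and in spring Manitou by 3.52 and 3.48.

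Sugar metabolism and transport members were higher in Norstar throughout the late days and mostly lost the call in Manitou. Sucrose synthase 2 (Ta.4274.1.S1_at), which splits sucrose for growing tissues, read 12.89, 12.64 and 12.29 in spring Norstar and 10.33, 10.05 and 9.89 in winter Norstar at 56 days. In Manitou the arrays were 13.19, 13.31 and 12.90 against 12.02, 12.35 and 12.22, and the differences of 2.52 and 0.94 were both called. Of the 4 transporters, a peptide transporter PTR2 (Ta.26331.1.A1_at), a nitrate transporter (Ta.13980.1.S1_at), the vacuolar aquaporin TIP4-2 (Ta.19375.1.S1_a_at) and an ATPase-like zinc transporter (Ta.23407.1.S1_at), all were called higher in Norstar at 56 days, by 1.56 to 2.01, and at 70 days, by 1.17 to 1.86. In Manitou 2 were called at 56 days, over 0.39 to 1.15, and 0 at 70 days, over -0.02 to 1.00.

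Other listed members each had a call of higher in Norstar on at least 1 of the late days. Ethylene-forming ACC oxidase (Ta.425.3.A1_at) was 1.88 higher in spring Norstar at 56 days (0.86 at 70 days, not called), and 2-oxoglutarate dioxygenases Ta.21020.1.S1_at and Ta.11619.1.A1_at, enzymes of a class that modifies hormones and secondary metabolites, were 1.50 and 1.33 higher, all called. Their values in Manitou were 0.33, 0.75 and 0.50, of which the second was called. The auxin-induced protein (Ta.20938.1.A1_at) and a putative transcription factor X1 (Ta.4126.1.A1_at) were 1.48 and 2.01 higher in spring Norstar at 56 days and 1.13 and 1.19 at 70 days, and at 70 days in Manitou they differed by 0.00 and 0.21, neither called. Peroxidase Ta.25946.1.A1_at was higher by 1.06 in Norstar and 0.93 in Manitou at 56 days, and a lipid transfer protein (Ta.13168.1.S1_a_at) by 1.14 in Norstar at 70 days (0.66 at 56 days, not called). Members with and without a description differed little as groups, as 58 of 68 and 62 of 82 were higher in Norstar at 56 days and 26 and 30 in Manitou, with medians of 1.58 and 1.37 and of 0.80 and 0.79.

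**Figure D5:**
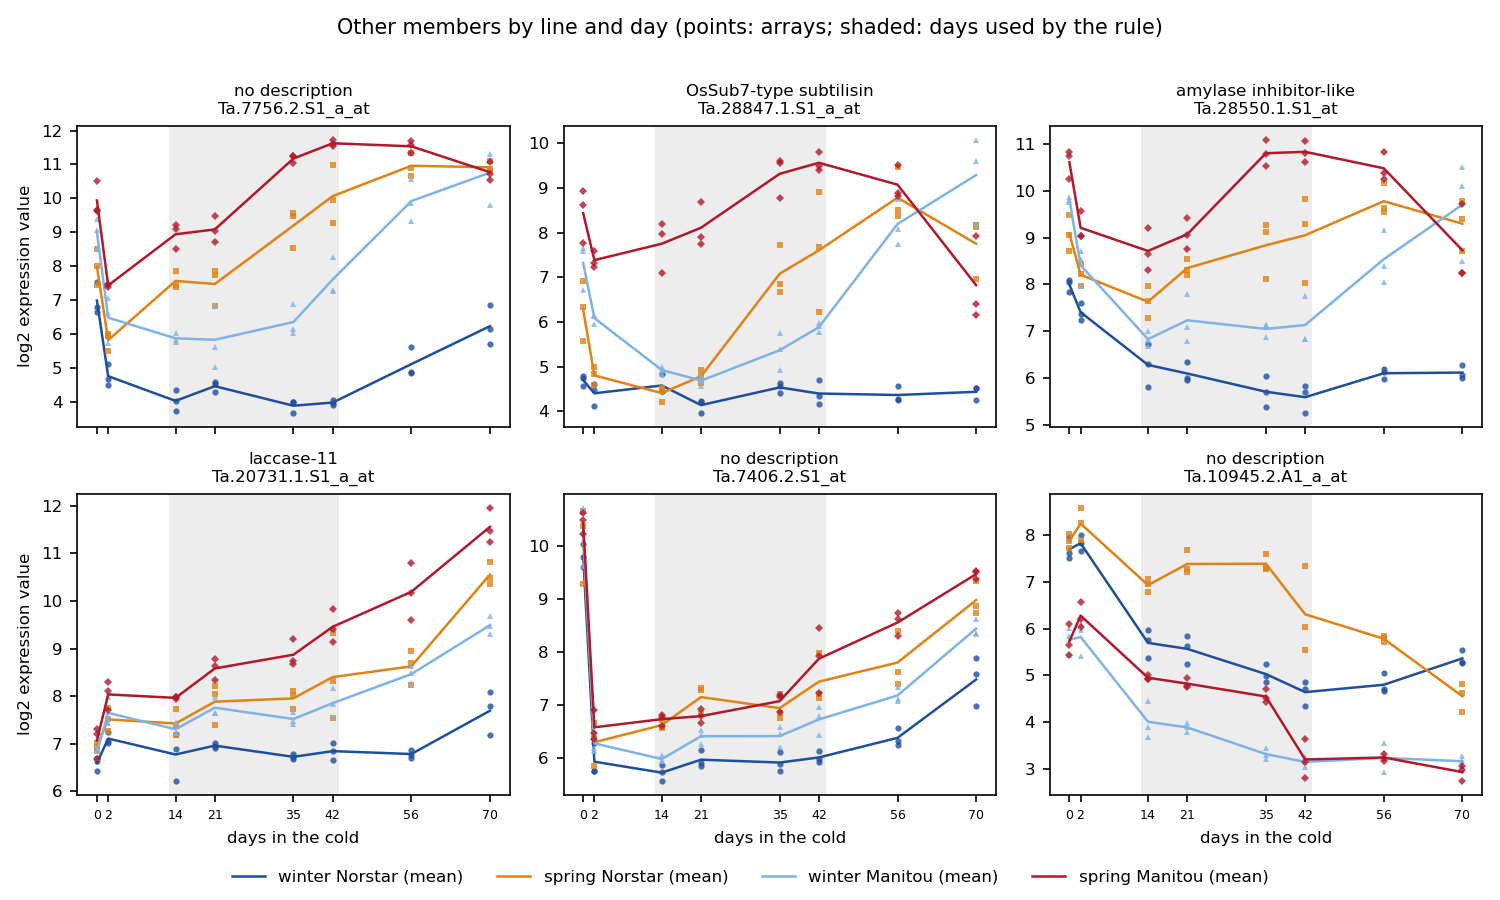
Log2 expression value (y axis) against days in the cold (x axis) of 6 other members in the 4 lines, with points for single arrays, lines for means of 3 and the days that chose the members shaded. The subtilisin probeset Ta.28847.1.S1_a_at shows the reversal in Manitou at 70 days (9.29 in the winter and 6.83 in the spring line), laccase-11 keeps the spring lines above their winter counterparts, and Ta.7406.2.S1_at falls in all lines from 0 to 2 days.

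Between 0 and 2 days, the first response after the move to 6 °C, more members fell than rose. The methods give lower light at 6 °C than before it, and no later group was kept in the warm. Cold, light and age thus cannot be told apart in this change. From 0 to 2 days 48 fell and 11 rose in winter Norstar (14.8% and 12.6% of all probesets fell and rose), 50 and 13 in spring Norstar (12.4% and 13.8%), 59 and 17 in winter Manitou (14.2% and 15.5%), and 55 and 17 in spring Manitou (14.4% and 14.3%). The median change of the members ran from -0.45 to -0.32 over the lines and that of all probesets from 0.02 to 0.04. In all 4 lines 37 members fell and 11 rose, joint counts with no share over all probesets beside them. The largest fall was that of Ta.7406.2.S1_at, undescribed, which read 10.73, 9.63 and 10.64 at 0 days and 6.51, 6.13 and 6.20 at 2 days in winter Manitou, a fall of 4.06 (SE 0.25), and fell by 3.81 to 3.88 in the other lines. Ta.7053.1.S1_at, also undescribed, went the other way from 6.68, 7.25 and 6.66 to 11.04, 10.63 and 11.22 in that line, a rise of 4.10 (SE 0.33) beside rises of 3.70 to 4.00 in the others. Ta.28584.1.A1_at fell by 2.89 to 3.36, and Ta.16296.1.S1_at rose by 1.69 to 2.11.

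From 2 to 70 days more members rose than fell in every line, and the fewest rose in winter Norstar. The counts were 77 up and 10 down in winter Norstar (20.3% and 19.9% of all probesets), 128 and 4 in spring Norstar (25.7% and 28.2%), 125 and 5 in winter Manitou (22.1% and 22.7%), and 111 and 4 in spring Manitou (25.9% and 27.6%). Median changes were 0.84, 2.02, 1.70 and 1.74 in that order, against -0.07 to -0.05 for all probesets. In all 4 lines 65 members rose, of which 24 had fallen in all 4 lines from 0 to 2 days, and 15 rose in none. A rise was called in winter Manitou but not in winter Norstar for 48 members, and 0 showed the opposite pattern. The members were thus not confined to spring habit. The joint counts over lines were taken over members only, with no share over all probesets beside them.

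The largest late rise was that of Ta.13876.1.S1_at, an expressed protein of unknown role, which read 3.61, 3.43 and 3.29 at 2 days and 9.53, 10.32 and 9.06 at 70 days in spring Manitou, a rise of 6.19 (SE 0.59, limma adjusted p = 9.12e-15). In winter Norstar its arrays spread from 4.18 to 7.53 at 70 days, with a rise of 2.48. An IBR domain protein (Ta.13318.1.S1_at), of a family linked to protein tagging with ubiquitin, rose by 2.59 and 3.61 in the winter and spring lines of Norstar and by 4.01 and 4.81 in those of Manitou. A few members ended lower than at 2 days. Ta.10945.2.A1_a_at fell by 2.46 to 3.68 in all lines and was still 0.98 higher in spring Norstar at 56 days, where Manitou showed a difference of 0.01, and at 70 days spring Norstar (4.23, 4.63 and 4.81) lay below winter Norstar (5.29, 5.54 and 5.26; difference -0.81, limma adjusted p = 0.00498). TaAffx.131916.1.S1_at fell by 2.65 in winter Norstar and 2.53 in winter Manitou but was not called in the spring lines, where it changed by -0.85 and -0.45, and Ta.9671.3.S1_a_at fell by 2.72 in winter Norstar and 1.81 in spring Norstar.

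Members also differed between the backgrounds at the same habit, a comparison that D does not make. More of them were called lower in Norstar than higher in all 8 contrasts, in like numbers in both habits at 0 and 2 days and in more members in winter habit at 56 and 70 days. At 0 days 42 were lower and 7 higher in winter Norstar than in winter Manitou (4.69% and 4.87% of all probesets), and 44 and 7 in spring habit (5.81% and 4.67%). At 2 days these counts were 37 and 5 in winter habit (4.96% and 4.19%) and 41 and 4 in spring habit (4.45% and 4.29%). By 56 days they were 113 and 3 in winter habit (8.88% and 7.10%) against 54 and 6 in spring habit (5.91% and 5.39%), and at 70 days 114 and 4 (8.32% and 8.26%) against 36 and 6 (6.24% and 6.26%). The median difference at 0, 2, 56 and 70 days was -0.35, -0.46, -1.46 and -1.33 in winter habit and -0.39, -0.51, -0.60 and -0.38 in spring habit. Leaving out 1 replicate in turn gave 16% to 24% of members lower in winter habit at 0 days in place of 28%, 12.7% to 22% at 2 days in place of 24.7%, and 16.7% to 22.7% and 10.7% to 17.3% in spring habit at 2 and 70 days in place of 27.3% and 24%.

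In all 8 of these contrasts 13 members were lower in Norstar, a joint count with no share over all probesets beside it. Of the members higher in Norstar, Ta.23807.3.S1_a_at, which has no known role, stood out. It read 11.18, 11.24 and 11.01 in winter Norstar and 5.76, 6.77 and 5.58 in winter Manitou at 0 days, and 12.37, 12.29 and 12.47 in spring Norstar against 6.72, 6.84 and 7.15 in spring Manitou at 70 days. The backgrounds thus differed by 5.10 at 0 days in winter habit and 5.47 at 70 days in spring habit, more than the largest habit difference of this probeset on the tested days (2.15, in Norstar at 56 days). Ta.4224.1.S1_at, undescribed, was higher in Norstar by 1.41 to 1.84 in the same contrasts at 0 and 70 days. Whether probes matched the transcripts of both cultivars equally well was not tested.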

How the data were processed

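The deposited values are log2 signals that the authors made with RMA (background correction, quantile normalization and summarization of probes to probesets), 1 column for each of 96 arrays, and no scaling was added. Values lay between 1.92 and 14.73, with array medians from 5.66 to 5.78. Arrays hold no read counts, so 3 arrays per group limit the precision. Of 61290 rows, 111 controls were dropped; as many of the brightest probesets by highest group mean as the methods count present were kept (limit 5.15), and the 7745 of them whose names end in _x_at or _s_at were left out, leaving 31543. Groups came from the sample labels. limma 3.58.1 (R 4.3.3, data.table version 1.17.8) fitted 32 group means with eBayes, contrasts were adjusted by the Benjamini-Hochberg method over all probesets tested, and a limma adjusted p under 0.01 was a call. The fit was tested on simulated arrays with known changes. Python 3.11.15, pandas 2.3.3, numpy 2.4.6 and matplotlib were used for tables and plots. Replicate numbers shared deviations within a day (r of same-numbered arrays from 0.465 to 0.752 at 0 days and from 0.105 to 0.625 at 70 days), but not every pair passed 0.1 on every day. The random block used a single correlation of 0.163 for all days, lower than those at 0 days. The members, lists and tests were chosen with earlier results of these data known. Named members were the first 10 by rank, the 3 largest called habit differences of each contrast, the 2 largest called rises and falls of each change, up to 4 of each gene list and those at the limit of the choice; SPL13, the BX9 and indole synthase group, MtN3 and other late probesets were added after their values were seen. Alternatives were other brightness limits, scalings, eBayes options, weights, blocks, single replicates left out, 48 arrays of a background alone, 100 or 315 members, and the limit of 7 read on the days of D alone (added after the data were seen). Of the study's annotation sheet, 1742 rows were held, 1714 of them tested, and the platform's gene annotation named 10 members. Sequences were not used here.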

Additional observations from a re-analysis of the deposited data

Results flagged for a closer look

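Of the 150 members, 27 at 56 days and 25 at 70 days had a larger habit difference in Norstar, and 0 in Manitou. The calls came from the limma contrast of the difference itself at an adjusted p under 0.01. Of all probesets tested, 0.476% and 0.336% were called larger in Norstar and 0.618% and 0.269% larger in Manitou on these days.

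Among the members named in the text, the excess of the Norstar over the Manitou difference at 56 days was 4.23 for Ta.7756.2.S1_a_at, 3.72 for Ta.23957.1.S1_at, 3.53 for the subtilisin Ta.28847.1.S1_a_at, 2.78 for Ta.7741.1.S1_at, and 2.24 and 1.90 for the LOC780634 probesets TaAffx.120063.1.S1_at and TaAffx.92706.1.A1_at. Flowering regulators on that day gave 2.68 (SPL13), 2.26 (Cen-like protein), 1.77 (FT-like protein Ta.10782.1.S1_at) and 1.76 (MADS2). XA13 gave 1.74, sucrose synthase 1.58, transcription factor X1 1.40 and the peptide transporter 1.39.

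At 70 days the excess was 5.77 and 4.19 for the subtilisin probesets Ta.28847.1.S1_a_at and Ta.28847.1.S1_at, 5.33 for Ta.23957.1.S1_at, 4.67 for Ta.7756.2.S1_a_at, and 4.16 and 3.56 for the amylase inhibitor-like probesets Ta.28550.1.S1_at and Ta.14568.1.S1_at. Cen-like protein gave 1.94, XA13 1.82, the inhibitor CI2C 1.76, SPL13 1.75 and beta-glucosidase 1.47. Smaller values were 1.19 for the zinc transporter, 1.18 for the peptide transporter, 1.12 for the auxin-induced protein, 1.10 for sucrose synthase, 1.03 for BX9 and 0.98 for transcription factor X1. SAG12 and the histone list, given in the report, moved over the same days, and their part in these differences was not tested.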

How the results depend on the processing

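Values are percentages of members called. With array quality weights, the members higher in spring Norstar were 2% at 0 days (1.33% as reported) and 4% at 2 days (0%). Those higher in spring Manitou at 2 days were 7.33% (2%). Those with a larger habit difference in Norstar at 70 days were 26% (16.7%). Those whose signed habit difference fell in Manitou from 2 to 70 days were 14.7% (6%). Those lower in spring Norstar than spring Manitou at 2 days were 42.7% (27.3%). With all 315 probesets of D 0.5 or more as members these were 0.635%, 0.635%, 0.952%, 10.2% and 3.81% for the first 5, and 10.8% for the background difference at 56 days (18%); with the first 100 members the first was 2%. A fit of the lines of 1 background alone gave 0.667%, 0.667% and 1.33% for the first 3. The replicate block, fixed or random within each day, gave 0.667% in Norstar at 2 days, and the random block within a day gave 28.7% for the background difference at 70 days; the block moved no other share of members by over 1.5 times.

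Leaving out 1 replicate in turn gave 0% in Norstar at 0 days and 0% to 0.667% in Manitou at 2 days. In Manitou at 56 days it gave 15.3% to 27.3% (37.3%). For the background difference at 56 and 70 days it gave 6% to 14.7% and 5.33% to 10.7%. For signed habit differences it gave 15.3% to 29.3% rising in Norstar (38%) and 0.667% to 6.67% falling in Manitou. For members lower in Norstar it gave 16% to 24% in winter habit at 0 days (28%), 12.7% to 22% at 2 days (24.7%), and 16.7% to 22.7% and 10.7% to 17.3% in spring habit at 2 and 70 days (27.3% and 24%). These fits hold fewer arrays. Reading the limit of 7 only on the days of D, an alternative added after the data were seen, moved no share by over 1.5 times. Over all settings other than a replicate left out, 359 shares stayed within 1.5 times the reported value and 19 moved, and of the named members' called changes 3328 kept and 22 lost the call under other settings, 845 and 160 with a replicate left out, and 0 reversed. Having 3 arrays per group limits which small differences at 0 and 2 days could be called.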
